A study of Mus musculus with 8 samples.

Results

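The BCL2 family is the group of proteins that decides whether a cell opens its outer mitochondrial membrane and dies. The 10 members described here were the rows of the deposited gene table with the symbols Bbc3, Bcl2l11, Pmaip1, Bid, Bad, Bax, Bak1, Bcl2, Bcl2l1 and Mcl1, out of 55291 genes in the table. All 10 passed the filter on low counts, as did 16630 genes in all. RNA sequencing had been done on CD8+ T cells from spleens of naïve mice, purified with a magnetic mouse CD8+ T cell isolation kit and no fluorescence sort. The 8 libraries comprised 4 titled ATF4 overexpression (ATF4OE in the figures), whose genotype is labelled ATF4 Tg/Tg, and 4 labelled WT. ATF4 is the transcription factor of the integrated stress response, and the comparison asks what its overexpression does in CD8+ T cells of naïve mice. The design text names the mice ATF4Tg/Tg or E8IcreATF4Tg/Tg, so both groups may carry the transgene, and the name WT follows the sample labels alone. E8I Cre is a recombinase driver that acts in CD8+ T cells. The labels give no age, nor do they say whether each library stands for its own mouse. The spread that p-values are read against may then be technical.

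The family falls into 3 classes. Guardians such as Bcl2, Bcl2l1 (BCL-XL) and Mcl1 hold the effectors Bax and Bak1 in check, and free effectors form the pores that release cytochrome c. BH3-only proteins, among them Bbc3 (PUMA), Bcl2l11 (BIM), Pmaip1 (NOXA), Bid and Bad, are classed by sharing the BH3 helix alone with the others. This helix fits into the groove of the guardians or of the effectors. In T cells Bcl2l11 is known for deleting self-reactive thymocytes and for ending responses, and Bcl2 and Mcl1 for keeping resting cells alive.

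The BH3 helix is the element that the classes share and through which they bind each other, so its coding sequence is shown for the members. Each stretch below holds 42 bases of the coding strand on GRCm38, read 5′ to 3′ from the longest complete GENCODE M21 coding transcript. The capitals mark the 18 bases that encode the core of 6 residues. It was searched as leucine, any 2 residues, then alanine, isoleucine, methionine or valine, then glycine, alanine or serine, then aspartate. Exactly 1 such core was found in each of 9 members. The predicted Pmaip1 protein held 2, and its sequence is not shown.
Bbc3: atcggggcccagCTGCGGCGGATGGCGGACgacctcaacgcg
Bcl2l11: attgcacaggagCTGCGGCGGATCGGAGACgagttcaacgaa
Bid: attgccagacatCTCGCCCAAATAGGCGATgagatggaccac
Bad: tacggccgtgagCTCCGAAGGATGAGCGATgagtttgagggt
Bax: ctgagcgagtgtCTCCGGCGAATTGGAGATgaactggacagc
Bak1: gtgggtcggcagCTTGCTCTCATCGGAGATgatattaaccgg
Bcl2: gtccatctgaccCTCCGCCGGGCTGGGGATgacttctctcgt
Bcl2l1: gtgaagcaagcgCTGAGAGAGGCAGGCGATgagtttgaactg
Mcl1: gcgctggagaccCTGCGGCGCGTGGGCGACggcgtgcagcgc
The stretches lie at chr7:16313761-16313802 (plus strand) for Bbc3, chr2:128147138-128147179 (plus) for Bcl2l11, chr6:120897286-120897327 (minus) for Bid and chr19:6950780-6950821 (plus) for Bad. Those of the effectors lie at chr7:45465994-45466035 (minus) for Bax and chr17:27022528-27022569 (minus) for Bak1. Those of the guardians lie at chr1:106712572-106712613 (minus) for Bcl2, chr2:152829694-152829735 (minus) for Bcl2l1 and chr3:95659424-95659465 (plus) for Mcl1. Every stretch lies within a single coding exon.

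The libraries held 93478686 to 125974143 estimated counts, with 17446 to 20338 genes detected. They fell into 2 sets, replicates 1 and 2 (set 1) and replicates 3 and 4 (set 2) of both groups, whose column names are written differently. What the sets are is not given in the sources used here. Values with the replicate number as a block are therefore given beside the named genes where they change the call, and for the members values within the sets too. Values are CPM, counts scaled to 1000000 per library after TMM scaling.

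Of the 10 members, 2 rose in ATF4 overexpression libraries, Bbc3 and Bcl2l11, both BH3-only genes. No member fell by edgeR's quasi-likelihood test of group alone, without the replicate block, at a Benjamini-Hochberg adjusted p below 0.05. At an unadjusted p below 0.05, 1 member was lower, which DESeq2 also called and limma-voom did not. No matching share of all genes was formed at that unadjusted threshold. Counts at it, here and for the lists below, are descriptions only. Over all genes DESeq2 called 2331 higher and 1093 lower, and limma-voom 1373 higher and 817 lower. By edgeR, 9.16% of all tested genes were called higher and 4.89% lower. Among the 10020 genes that averaged 5 CPM or more, a level that every member reached, 7.53% were higher and 7.50% lower. Against that background the count of members is not a result about the family, and the results below are those of single genes. In 3 members, Bbc3, Bcl2l11 and Bid, the groups did not overlap, as in 22.0% of all tested genes. The median log2 fold change was 0.16 over the members and -0.02 over all tested genes. In bulk RNA, fewer cells of a type and less RNA per cell cannot be told apart.

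Bbc3 encodes PUMA, a BH3-only protein that binds every guardian and is a textbook target of p53. Its level was 50.8, 61.9, 34.6 and 36.8 CPM in ATF4 overexpression libraries 1 to 4, against 17.3, 20.7, 18.5 and 21.7 CPM in WT libraries 1 to 4. Every ATF4 overexpression library lay above every WT library, and the ATF4 overexpression libraries of set 1 lay above those of set 2. The means were 46.05 ± 12.8 CPM in ATF4 overexpression and 19.6 ± 2.01 CPM in WT (SD, n = 4 each). The log2 fold change was 1.23 ± 0.18 (SE; 95% interval 0.83 to 1.64), a fitted ratio of 2.35 (edgeR adjusted p = 0.0017). An exact two-sided permutation test of the mean log2 CPM over all 70 assignments gave p = 0.0286, the smallest it can give here.

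The Bbc3 values of the 2 sets were unequal, but the test of the difference did not pass. Within set 1 the log2 fold change was 1.60 (edgeR adjusted p = 4.4e-04), and within set 2 it was 0.83 (adjusted p = 0.0025). The test of that difference, set 2 minus set 1, gave -0.74 ± 0.18 on the log2 scale, with an unadjusted p of 0.0027 and an edgeR adjusted p of 0.12. The mean of set 1 was 1.58 times that of set 2 in ATF4 overexpression libraries and 0.944 times in WT libraries. The interaction of genotype and set was called for 0.998% of all tested genes by edgeR and for 0 of the 10 members. Of the members, 2 (Bbc3 and Bid) had an unadjusted p below 0.05. No share of all tested genes was formed at that unadjusted threshold, so this count is no result about the members. No other tool was run for the interaction.

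Bcl2l11 encodes BIM, the BH3-only protein on which the death of lymphocytes deprived of cytokine depends. Its level was 174, 150, 131 and 119 CPM in ATF4 overexpression libraries 1 to 4, against 87.8, 82.5, 76.4 and 66.1 CPM in WT libraries 1 to 4. The lowest ATF4 overexpression library lay above the highest WT library. The means were 143.5 ± 24.1 CPM in ATF4 overexpression and 78.2 ± 9.30 CPM in WT (SD, n = 4 each). Its log2 fold change was 0.88 ± 0.13 (SE; 95% interval 0.59 to 1.16), a fitted ratio of 1.84 (edgeR adjusted p = 0.0017; exact permutation p = 0.0286). It was 0.96 within set 1 (adjusted p = 7.3e-04) and 0.81 within set 2 (adjusted p = 0.0020), and the test of the difference between sets had an edgeR adjusted p of 0.80. Bcl2l11 spans chr2:128126038-128162547 on the plus strand, and Bbc3 chr7:16308393-16318205 on the plus strand. The exons of neither overlap another annotated gene.

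The other 3 BH3-only members did not pass the test without the block. Bid, whose protein a caspase cuts to link death receptors to mitochondria, was at 22.2, 17.7, 26.4 and 23.4 CPM in ATF4 overexpression libraries 1 to 4, against 31.2, 29.95, 29.2 and 26.6 CPM in WT libraries 1 to 4. The groups did not overlap, but the highest ATF4 overexpression library and the lowest WT library were close. The log2 fold change was -0.38 ± 0.12 (SE; edgeR adjusted p = 0.066; exact permutation p = 0.0286). With the replicate number as a block it was -0.39, and Bid was then called lower (edgeR adjusted p = 0.026). It was -0.58 within set 1 (adjusted p = 0.034) and -0.16 within set 2 (adjusted p = 0.31). Of the merged exons of Bid, 17.7% overlap Bcl2l13 on the other strand, which averaged 7598 estimated counts to 2901 of Bid. The strand setting is not given in the sources used here, so reads of this overlap cannot be assigned to 1 gene with certainty.

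Bad, which growth factor kinases keep inactive by phosphorylation, was at 10.4, 9.03, 13.1 and 13.9 CPM in ATF4 overexpression libraries 1 to 4, against 8.88, 8.57, 8.87 and 10.7 CPM in WT libraries 1 to 4. The groups overlapped, with a log2 fold change of 0.33 ± 0.17 (SE; edgeR adjusted p = 0.25). Of its merged exons, 20.5% overlap Gpr137 on the other strand, which averaged 1360 estimated counts to 1191 of Bad.

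Pmaip1 encodes NOXA, which binds Mcl1 and promotes its breakdown. Its level was 17.4, 15.5, 5.81 and 6.01 CPM in ATF4 overexpression libraries 1 to 4, against 17.1, 17.0, 7.25 and 6.85 CPM in WT libraries 1 to 4. Here the libraries separated by set and not by genotype. The mean of set 1 was 2.79 times that of set 2 in ATF4 overexpression libraries and 2.42 times in WT libraries. The log2 fold change between genotypes was -0.11 ± 0.46 (SE; 95% interval -1.15 to 0.93; edgeR adjusted p = 0.93). With the replicate block it was -0.15 ± 0.11 (SE; 95% interval -0.40 to 0.09; adjusted p = 0.35), an interval that leaves out a change as large as that of Bcl2l11 in either direction.

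**Figure D1:**
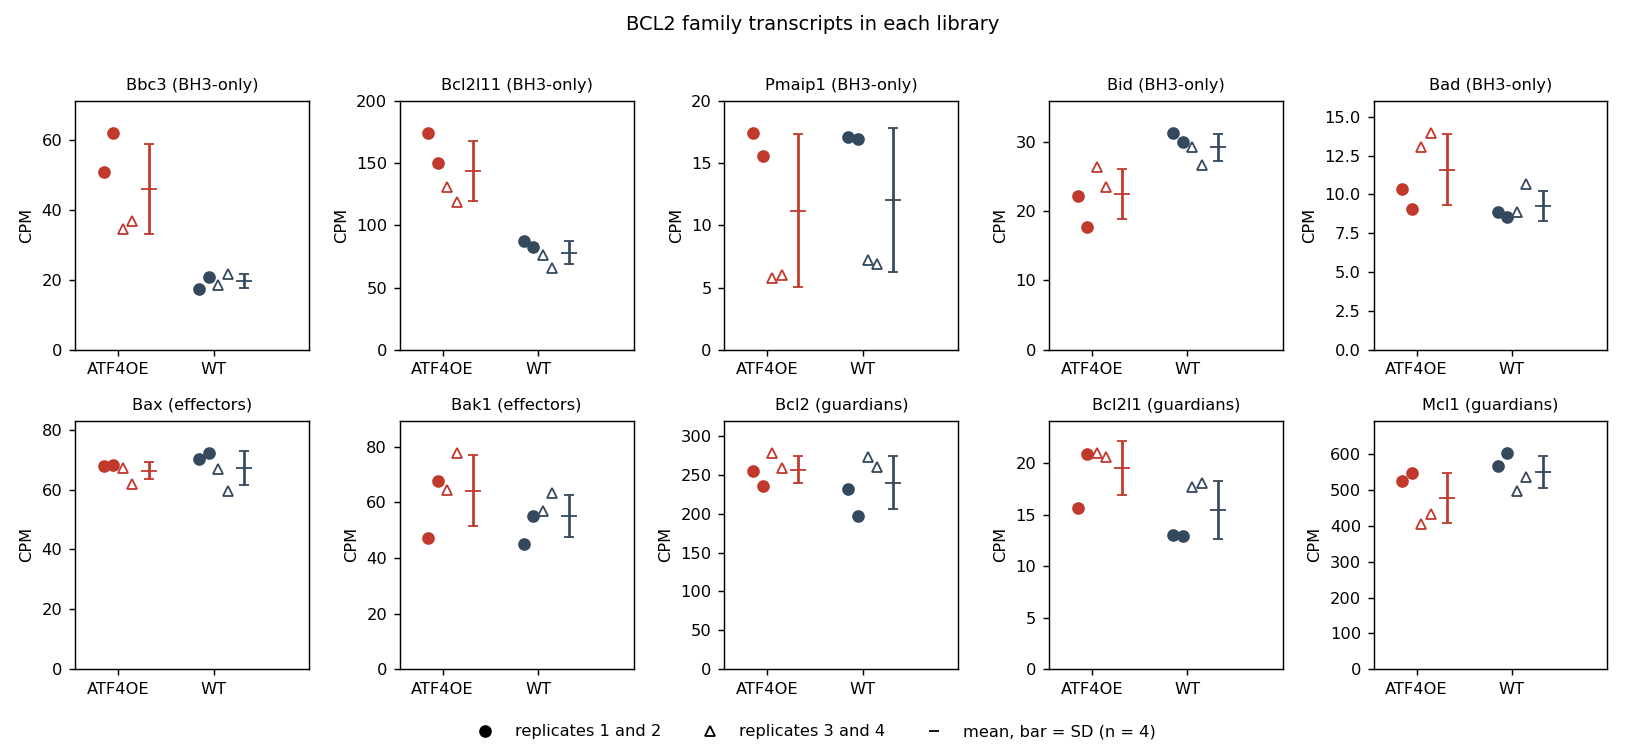
Level of each of the 10 members in CPM after TMM scaling, with 1 point per library, ATF4 overexpression left of WT, and the group mean with its SD (n = 4) beside the points. The groups do not overlap for Bbc3, Bcl2l11 and Bid, while Pmaip1 separates replicates 1 and 2 (15.5 to 17.4 CPM) from replicates 3 and 4 (5.81 to 7.25 CPM) in both groups.

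Neither effector passed the test without the block. Bax was at 67.9, 68.2, 67.3 and 62.0 CPM in ATF4 overexpression libraries 1 to 4, against 70.2, 72.2, 66.9 and 59.5 CPM in WT libraries 1 to 4. The groups overlapped throughout. Its log2 fold change was -0.02 ± 0.08 (SE; edgeR adjusted p = 0.92), and the 95% interval of the ratio ran from 0.875 to 1.11, the narrowest of the members.

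Bak1, the effector that resides at the mitochondrial outer membrane, was at 47.1, 67.5, 64.5 and 77.7 CPM in ATF4 overexpression libraries 1 to 4, against 44.8, 55.0, 56.9 and 63.3 CPM in WT libraries 1 to 4. Each ATF4 overexpression library lay above the WT library of its own number, although the groups overlapped. Without the block the log2 fold change was 0.22 ± 0.15 (SE; edgeR adjusted p = 0.42). With the replicate block it was 0.21 ± 0.06, and Bak1 was then called higher (edgeR adjusted p = 0.022). No other alternative called it, the library set as a block included (0.22; adjusted p = 0.21).

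None of the 3 guardians passed the test without the block. Bcl2, the guardian that IL-7 maintains in resting T cells, was at 254, 235, 278 and 259 CPM in ATF4 overexpression libraries 1 to 4, against 231, 197, 273 and 260 CPM in WT libraries 1 to 4. The groups overlapped, with a log2 fold change of 0.10 ± 0.10 (SE; edgeR adjusted p = 0.65), and the block did not change this (adjusted p = 0.17).

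Bcl2l1, known for its induction in activated T cells, was at 15.6, 20.9, 20.98 and 20.6 CPM in ATF4 overexpression libraries 1 to 4, against 13.0, 12.9, 17.7 and 18.03 CPM in WT libraries 1 to 4. ATF4 overexpression library 1 lay within the range of WT. This gave a log2 fold change of 0.34 ± 0.15 (SE; edgeR adjusted p = 0.20). It was 0.35 ± 0.10 with the replicate block, where Bcl2l1 was called higher (edgeR adjusted p = 0.040).

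Mcl1, a short-lived guardian that T cells need at every stage, was at 527, 549, 405 and 433 CPM in ATF4 overexpression libraries 1 to 4, against 568, 604, 499 and 538 CPM in WT libraries 1 to 4. Each ATF4 overexpression library lay below the WT library of its own number, and the groups overlapped. Without the block the log2 fold change was -0.21 ± 0.11 (SE; edgeR adjusted p = 0.27). It was -0.21 ± 0.05 with the block, where Mcl1 was called lower (edgeR adjusted p = 0.010). Within set 1 it was -0.09 (adjusted p = 0.60) and within set 2 -0.30 (adjusted p = 0.022).

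With the replicate block, 4 members were higher (Bbc3, Bcl2l11, Bak1 and Bcl2l1) and 2 lower (Bid and Mcl1). The block raised the calls over all tested genes too, to 13.7% higher and 13.5% lower.

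**Figure D2:**
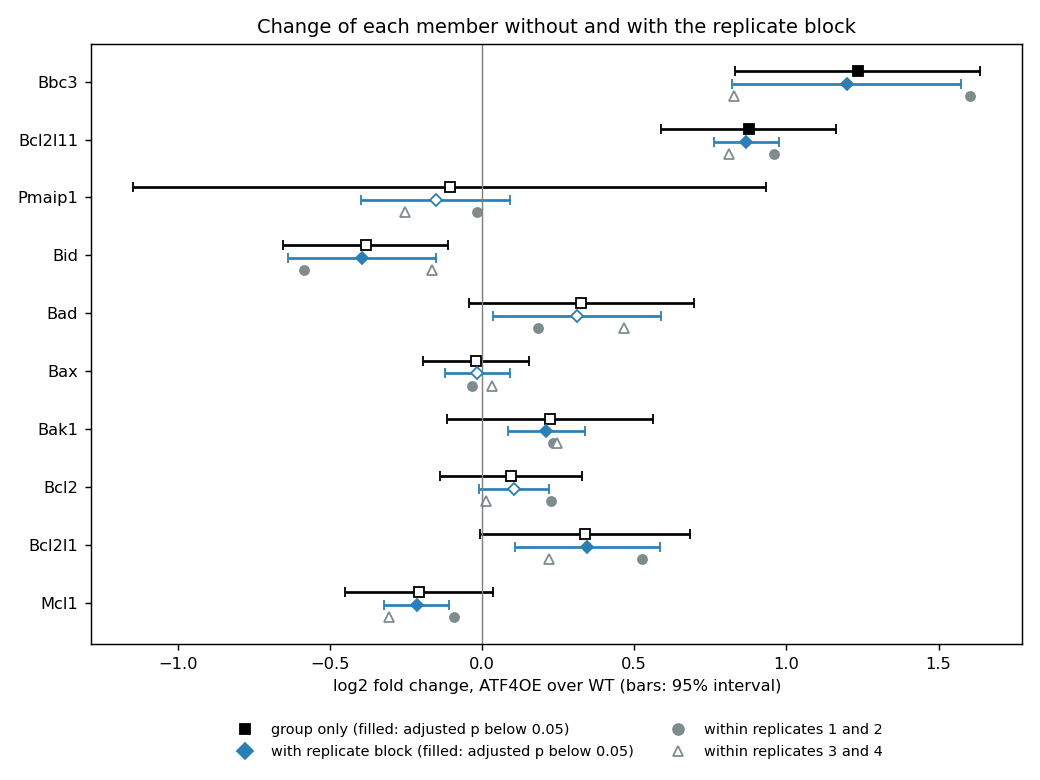
Log2 fold change of ATF4 overexpression over WT for each member, with 95% intervals, from the fit without (squares) and with (diamonds) the replicate block. Filled symbols have an adjusted p below 0.05, and grey symbols give the value within replicates 1 and 2 and within replicates 3 and 4. Bbc3 and Bcl2l11 are called in both fits, and Bid, Bak1, Bcl2l1 and Mcl1 with the block alone.

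To compare levels between members, CPM was divided by the length in kb of the longest coding transcript. On this scale of CPM per kb, Mcl1 stood highest, at 140.0 in ATF4 overexpression and 161.5 in WT (group means). Bax followed at 60.3 and 61.1 CPM per kb in ATF4 overexpression and WT, then Bcl2 at 35.7 and 33.4. The ranges of these 3 genes did not overlap each other within either group.

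The order below them differed between the groups. In ATF4 overexpression Bcl2l11 averaged 28.5 CPM per kb, Bak1 26.9 and Bbc3 25.4, and their ranges overlapped. There the ranges of Bcl2l11 (23.6 to 34.6) and Bbc3 (19.1 to 34.1) also reached that of Bcl2 (32.7 to 38.7). In WT Bak1 averaged 23.0 CPM per kb, Bcl2l11 15.5, Bid 13.4 and Bbc3 10.8. There the ranges of Bcl2l11 (13.1 to 17.4) and Bid (12.2 to 14.3) overlapped, and Bbc3 (9.55 to 11.99) lay below Bid. The remaining members were low in ATF4 overexpression and WT alike, Bad at 7.57 and 6.03, Bcl2l1 at 7.60 and 6.004 and Pmaip1 at 4.10 and 4.42 CPM per kb. Dividing by the merged exons of each gene instead left the first 4 of the WT order in place, exchanged Bid and Bbc3, and put Pmaip1 above Bad and Bcl2l1. The order thus rests on the length chosen. The median coding transcript of Bbc3 has 485 bases against 1814 for its longest, and that of Bcl2 5016 against 7191. No order was formed on median lengths.

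**Figure D3:**
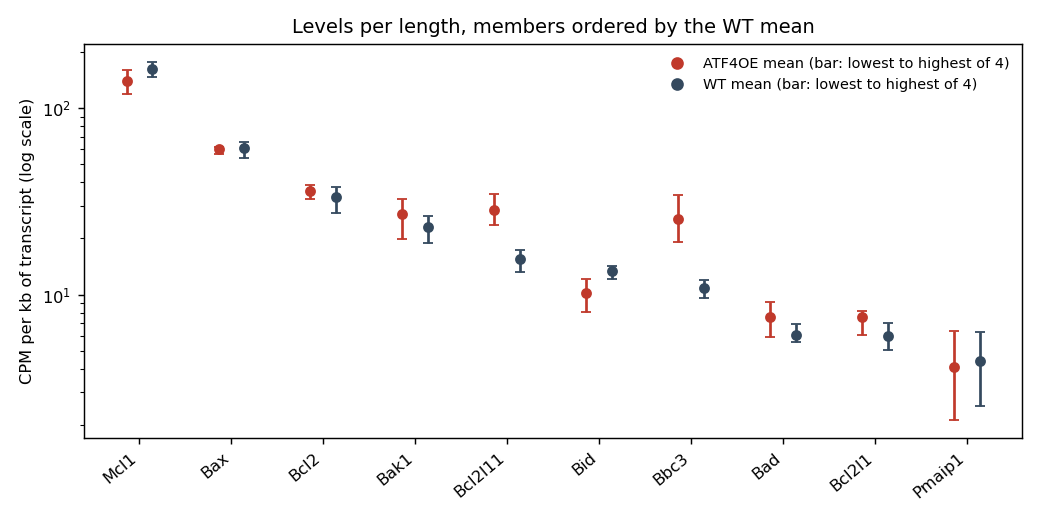
Level of each member per kb of its longest coding transcript (CPM per kb, log axis), as the group mean with a bar from the lowest to the highest of 4 libraries, ATF4 overexpression left of WT. On this length Mcl1, Bax and Bcl2 have the highest means in both groups. Bcl2l11 and Bbc3 stand nearer to Bcl2 in ATF4 overexpression than in WT, and their ranges overlap that of Bcl2 there.

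The counts of a BH3-only gene can be set against those of a guardian within each library, as a ratio that does not depend on library scaling. The ratios compare libraries, not the amounts of the 2 transcripts, since lengths differ. For every 100 Bcl2 counts there were 56.3 ± 11.5 Bcl2l11 counts in ATF4 overexpression and 33.3 ± 7.89 in WT (SD, n = 4 each). The libraries ran from 45.9 to 68.4 in ATF4 overexpression and from 25.4 to 42.0 in WT, without overlap. For every 100 Mcl1 counts there were 30.1 ± 3.05 Bcl2l11 counts in ATF4 overexpression and 14.2 ± 1.496 in WT.

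Bbc3 gave the same picture. There were 18.25 ± 6.29 Bbc3 counts per 100 Bcl2 counts in ATF4 overexpression and 8.29 ± 1.62 in WT. Against Mcl1 there were 9.495 ± 1.305 Bbc3 counts per 100 in ATF4 overexpression and 3.56 ± 0.423 in WT, and the groups did not overlap in either ratio. The effector Bax had 25.95 ± 2.38 counts per 100 Bcl2 counts in ATF4 overexpression and 28.6 ± 6.28 in WT, where the groups overlapped. Between 2 guardians, there were 4.18 ± 0.993 Bcl2l1 counts per 100 Mcl1 counts in ATF4 overexpression and 2.83 ± 0.720 in WT, with overlap. The BH3-only genes used were ones called higher, and neither Bcl2 nor Mcl1 was called without the block. The direction of their ratios was thus given beforehand. Ratios of Bid, Bad and Pmaip1 were not formed. The ratios rest on the gene changes given above and are no separate evidence.

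**Figure D4:**
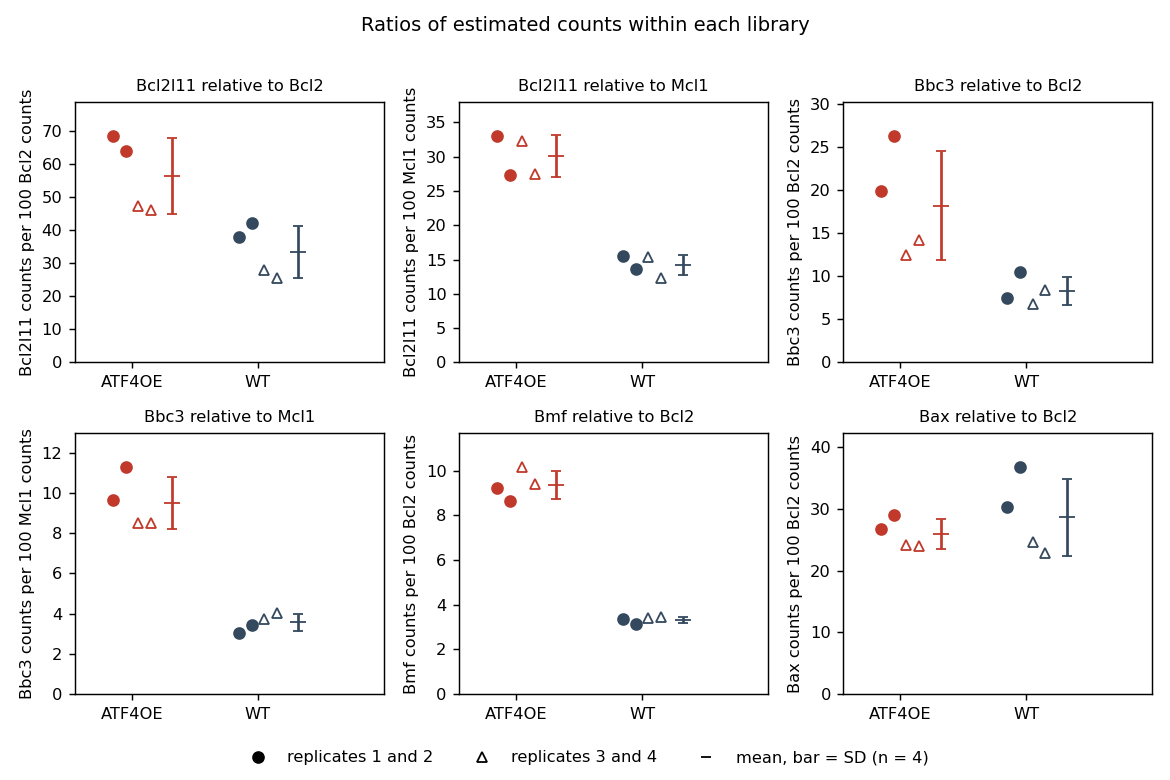
Counts of one gene per 100 counts of another in each library, ATF4 overexpression left of WT, with the group mean and its SD (n = 4) beside the points. The Bcl2l11 and Bbc3 ratios to Bcl2 and to Mcl1 do not overlap between the groups, while Bax per 100 Bcl2 does.

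Outside the 10 members, 12 of 15 listed genes of the wider family were tested, and 3 rose while 0 fell (median log2 fold change 0.36). At an unadjusted p below 0.05 none of the 12 was lower, and DESeq2 and limma-voom called 0 lower as well. Hrk and Bcl2l10 had no count in any library, and Bok was near 0.

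Bmf encodes another BH3-only protein, which in mice shares functions with BIM in lymphocytes. Its level was 23.4, 20.4, 28.2 and 24.4 CPM in ATF4 overexpression libraries 1 to 4, against 7.72, 6.15, 9.26 and 8.93 CPM in WT libraries 1 to 4. The groups stood far apart, with means of 24.1 ± 3.24 CPM in ATF4 overexpression and 8.01 ± 1.41 CPM in WT (SD, n = 4 each). The log2 fold change was 1.59 ± 0.16 (SE; edgeR adjusted p = 1.9e-04). For every 100 Bcl2 counts there were 9.36 ± 0.616 Bmf counts in ATF4 overexpression and 3.32 ± 0.137 in WT. The planned wider form of the BH3 core matched 3 times in Bmf and the narrower form 1 time. Its BH3-coding stretch lies at chr2:118545097-118545138 on the minus strand and is shown for comparison with those of Bbc3 and Bcl2l11 above.
Bmf: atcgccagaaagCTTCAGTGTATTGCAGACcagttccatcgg

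Bcl2l2 encodes BCL-W, a guardian. It averaged 9.15 ± 0.813 CPM in ATF4 overexpression and 3.89 ± 0.919 CPM in WT, a log2 fold change of 1.23 ± 0.19 (SE; edgeR adjusted p = 0.0024). Bcl2a1d, a guardian of the A1 group, averaged 5.41 ± 1.38 CPM in ATF4 overexpression and 1.49 ± 0.867 CPM in WT (log2 fold change 1.86; edgeR adjusted p = 0.012). It has near-identical copies, among which reads can be divided in error, so its value is uncertain. In a fit without the 4 libraries of low count ratio, it was no longer called (adjusted p = 0.12). A low count ratio here means fewer than 0.5 genes at 2 counts for every gene at 1 count. Bcl2a1b had a log2 fold change of 0.32 (adjusted p = 0.25).

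Downstream of Bax and Bak1, where cytochrome c, Apaf1 and caspases carry out death, 1 of 18 genes rose and 0 fell (median -0.00). At an unadjusted p below 0.05, 3 were higher and 1 lower, and DESeq2 and limma-voom each called 1 higher and 0 lower. Casp9, the initiator that the apoptosome activates, had a log2 fold change of 0.23 (adjusted p = 0.13). Birc3, an inhibitor of apoptosis protein, had -0.19 in both fits and was called lower with the block (adjusted p = 0.069 without it and 0.018 with it). With the block 3 of the 18 were higher and 2 lower.

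Of 15 tested transcription regulators of the family, 3 rose and 1 fell (median 0.11). Ddit3 encodes CHOP, the stress factor reported in other cells to induce Bbc3 and Bcl2l11. It averaged 50.8 ± 9.93 CPM in ATF4 overexpression and 20.4 ± 3.75 CPM in WT (log2 fold change 1.32 ± 0.16, SE; edgeR adjusted p = 7.5e-04). E2f1 averaged 10.7 ± 4.40 CPM in ATF4 overexpression and 3.40 ± 0.322 CPM in WT (1.66 ± 0.29; adjusted p = 0.0041). Cebpb had a log2 fold change of 1.43 ± 0.41 (adjusted p = 0.044). The call was lost without ATF4 overexpression library 1 or 2 or WT library 1, 3 or 4 (0.067 to 0.107). It was also lost with no low-count filter (0.077) and without the 4 libraries of low count ratio (log2 fold change 0.70; adjusted p = 0.42). Of the merged exons of Cebpb, 20.7% overlap Tmem189 on the other strand, which averaged 8838 estimated counts to 864 of Cebpb.

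Foxo1, a factor of quiescent T cells that can activate Bcl2l11, fell. It averaged 272 ± 23.4 CPM in ATF4 overexpression and 345 ± 11.6 CPM in WT, a log2 fold change of -0.34 ± 0.08 (SE; edgeR adjusted p = 0.014). The call was lost without ATF4 overexpression library 3 (0.058), without WT library 3 (0.052) and within set 1 (0.10), as adjusted p. Atf4 itself averaged 328 ± 125 CPM in ATF4 overexpression and 231 ± 76.4 CPM in WT (0.51 ± 0.31; adjusted p = 0.37), and with the replicate block it was called higher (0.48; adjusted p = 2.2e-04). Trp53, which encodes p53, averaged 188 ± 12.1 CPM in ATF4 overexpression and 210 ± 4.69 CPM in WT (-0.16; adjusted p = 0.15), and with the block it was called lower (adjusted p = 0.019). With the block 5 of the 15 regulators were higher and 3 lower.

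Among 14 other targets of p53, listed because Bbc3 and Pmaip1 are targets too, 1 rose and 1 fell (median -0.08). Cdkn1a, which encodes the cell cycle inhibitor p21, averaged 2.05 ± 0.765 CPM in ATF4 overexpression and 0.458 ± 0.0631 CPM in WT (log2 fold change 2.16 ± 0.36, SE; edgeR adjusted p = 0.0034). Without the 4 libraries of low count ratio it was 1.66 (adjusted p = 0.080). Tnfrsf10b, the mouse TRAIL receptor, had -0.76 ± 0.21 (adjusted p = 0.039), and the call was lost within set 1 (0.053) and in 6 of the 8 fits without 1 library (0.060 to 0.107), all but those without ATF4 overexpression library 1 or WT library 3. Pidd1 had 0.40 (adjusted p = 0.063) and Trp53inp1 -0.26 (adjusted p = 0.060). Blocking on replicate number left 3 of the 14 higher, Pidd1 among them (adjusted p = 0.028), and 4 lower, Trp53inp1 among them (adjusted p = 0.0023).

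Genes for the turnover and modification of the family's proteins, 18 in all, gave 0 calls by edgeR in either direction (median 0.03). At an unadjusted p below 0.05, 1 was higher and 0 lower, DESeq2 called 1 higher and limma-voom 0. Mapk9, a JNK kinase that phosphorylates BIM and BMF, had the smallest p, with a log2 fold change of 0.25 (edgeR adjusted p = 0.055). Blocking on replicate number left 3 of the 18 higher, Mapk9 among them (adjusted p = 0.010), and 3 lower.

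Survival cytokine receptors and their signalling genes, 14 in all, included 2 that rose and 3 that fell (median -0.11). Il7r, the receptor through which IL-7 maintains Bcl2, averaged 414 ± 34.2 CPM in ATF4 overexpression and 645 ± 29.8 CPM in WT (log2 fold change -0.64 ± 0.08, SE; edgeR adjusted p = 5.8e-04). Il4ra averaged 152 ± 6.20 CPM in ATF4 overexpression and 209 ± 12.6 CPM in WT (-0.46 ± 0.07; adjusted p = 0.0018). Il2rb, the beta chain shared by the IL-2 and IL-15 receptors, averaged 553 ± 36.1 CPM in ATF4 overexpression and 369 ± 50.0 CPM in WT (0.58 ± 0.10; adjusted p = 0.0041). Cish, a feedback inhibitor of cytokine signalling, averaged 14.3 ± 1.33 CPM in ATF4 overexpression and 7.90 ± 1.26 CPM in WT (0.85 ± 0.15; adjusted p = 0.0039). The third gene that fell was Il6st (-0.40 ± 0.09; adjusted p = 0.018), which is named after its value was seen. Its call was lost without ATF4 overexpression library 3 or 4 or WT library 1 or 2 (adjusted p = 0.050 to 0.058). Blocking on replicate number left 2 of the 14 higher and 5 lower, with Il2rg (-0.12; adjusted p = 0.032) and Jak1 (-0.21; adjusted p = 0.014) added.

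**Figure D5:**
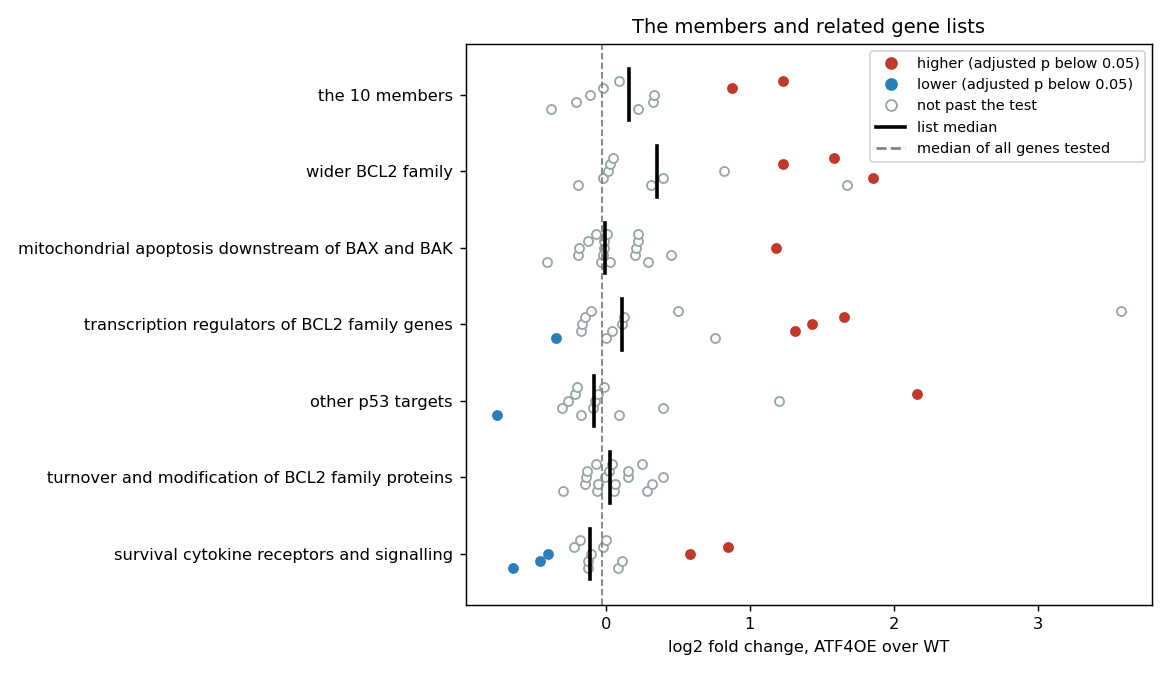
Log2 fold change of ATF4 overexpression over WT for the 10 members and each tested gene of the 6 lists around the family. Filled points have an adjusted p below 0.05 (red higher, blue lower), solid lines are list medians and the dashed line is the median of all tested genes. Bmf (1.59) and Bcl2l2 (1.23) lie apart in the wider family, while the turnover list has 0 filled points.

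Markers of other cell types moved with genotype too. Of 6 CD8 T cell markers 4 were lower, and their summed level was 3739 to 3805 CPM in ATF4 overexpression and 4696 to 4848 CPM in WT, with none at 0. Of 5 erythroid markers 4 were higher (49.6 to 212 CPM summed in ATF4 overexpression, 3.47 to 7.77 CPM in WT). Of 5 myeloid markers 3 were higher (90.5 to 217 CPM in ATF4 overexpression, 15.6 to 64.8 CPM in WT). Of 3 NK markers 2 were higher (63.2 to 128 CPM in ATF4 overexpression, 9.29 to 38.6 CPM in WT).

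All 5 cycling markers were higher, at 185 to 489 CPM summed in ATF4 overexpression and 33.1 to 71.4 CPM in WT. Both CD4 T cell markers were higher (8.79 to 22.1 CPM in ATF4 overexpression, 2.75 to 5.60 CPM in WT). So were 3 of 4 platelet markers (7.26 to 15.5 CPM in ATF4 overexpression, 3.37 to 4.22 CPM in WT), with Pf4 and Gp9 at 0 in at least 1 library. Of 5 B cell markers 4 were higher, but the sums overlapped (534 to 828 CPM in ATF4 overexpression, 571 to 736 CPM in WT). Most of that sum was Ighm, which was not called, and the other 4 summed to 60.2 to 181 CPM in ATF4 overexpression and 11.4 to 37.9 CPM in WT. In ATF4 overexpression the erythroid sum was 49.6 to 53.6 CPM in set 1 and 205 to 212 CPM in set 2, and the cycling sum 185 to 194 CPM in set 1 and 462 to 489 CPM in set 2. The myeloid and platelet sums were also higher in set 2 there. Most of the myeloid difference was Lyz2, at 42.1 and 23.9 CPM in set 1 and 158 and 164 CPM in set 2. Lyz2 was not called between genotypes. Csf1r was also higher in set 2, but Itgam (43.7 and 36.6 CPM in set 1, 15.2 and 16.6 CPM in set 2) and Cd68 were lower. Adgre1 overlapped between the sets. Other classes ran the other way in ATF4 overexpression, as Bbc3 did. The NK sum was 109.8 to 128 CPM in set 1 and 63.2 to 65.1 CPM in set 2, the B cell sum 824 to 828 CPM in set 1 and 534 to 568 CPM in set 2, and the CD4 T cell sum 21.1 to 22.1 CPM in set 1 and 8.79 to 9.25 CPM in set 2. In WT each NK marker was higher in set 2, as Ncr1 at 2.07 and 2.13 CPM in set 1 and 7.80 and 8.04 CPM in set 2. Cd4 was higher in set 2 there too, and Cd40lg overlapped between the sets. Each B cell marker was higher in set 1 in WT, as Ighm at 660 and 698 CPM in set 1 and 560 and 580 CPM in set 2. The WT mean of Bbc3 in set 1 was 0.944 times that in set 2. The log2 fold changes were 1.60 and 0.83 for Bbc3 in set 1 and set 2, and 0.96 and 0.81 for Bcl2l11. The part of other cells in the changes of members was not tested.

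The promoters of the members were searched on both strands for the letters TGATGNAA, the C/EBP-ATF composite element, and TGACGTCA, the cyclic AMP response element. None of the 15 RefSeq windows of 9 members (GRCm38.p6, 300 bases around the start) held either. Of all 32851 windows, 3.97% held TGATGNAA and 1.79% held TGACGTCA. Absence says only that these letters are not in these windows.

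The genes whose levels ran most like those of Bbc3, the member with the smallest p, were Agbl5, Spry2, Zmiz1, Plekho1 and Dtx3. Their Pearson r with Bbc3 on log2 CPM over the 8 libraries was 0.980 to 0.984, taken among 8763 genes of at least 10 CPM, of which 26 exceeded 0.95. The libraries share genotype and set, so r is a description. Spry2, a feedback inhibitor of receptor signalling, averaged 24.4 ± 10.1 CPM in ATF4 overexpression and 3.85 ± 0.855 CPM in WT (log2 fold change 2.66 ± 0.31, SE; edgeR adjusted p = 4.9e-04).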

How the data were processed

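The values are estimated counts by gene symbol for 8 libraries, in 1 table that the authors deposited and made with Salmon 1.4.0 on GRCm38 p6 per the submitters' processing notes. The sources used here give no annotation release, strand setting or trimming. Salmon divides shared reads between overlapping genes and paralogs by a model. The counts were rounded to whole numbers and tested with edgeR 4.0.16 (quasi-likelihood, robust, TMM, filterByExpr) under R 4.3.3, fitting group alone, and p-values were adjusted over all 16630 genes tested. The fit of group alone was also run on simulated counts, with the same relative spread for every gene and no library sets. That run does not bear on how the sets affect the fit. Alternatives, including DESeq2 1.42.0 and limma-voom (limma 3.58.1), are given in the closing section. Standard errors come from the F statistic. Counts from amplified libraries are not independent molecules, so precision covers counting error and the spread between libraries.

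Groups and replicate numbers came from the sample titles, and 0 columns of the table were left unused. Pairs of libraries within a group had a chi-square of at least 38.9 per degree of freedom, so none was treated as a repeat. Deviations from the group means correlated at 0.199 to 0.289 in the 4 pairs of the same number, above 0.1 in each. Libraries of the same set with another number reached 0.157 to 0.254, and those of the other set -0.271 to -0.164. These values tell the sets apart but do not show pairing by number. The replicate number was a block in an alternative fit alone, and the main fit holds neither number nor set. The members, lists and markers were chosen with earlier results of these data known. All members are described, and of each list up to 4 genes with the smallest p-values are named. Some genes of the lists are not reported here. Symbols were matched to GENCODE M21, where 53292 of 55291 were found, and all 10 members matched exactly 1 gene.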

Additional observations from a re-analysis of the deposited data

Results flagged for a closer look

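In 3 of the 20 groups of 4 libraries examined for the members (10 members, both genotypes), 1 library stood apart from the other 3. Its gap to the nearest library, as a share of the whole range, was above Dixon's 95% critical value for 4 values. Chance flags about 1 group in 20. For Bcl2l1 in ATF4 overexpression the share was 0.929, with library 1 at 15.6 CPM below the others at 20.6 to 20.98 CPM. For Bax in ATF4 overexpression it was 0.852, with library 4 at 62.0 CPM below the others at 67.3 to 68.2 CPM. For Bad in WT it was 0.853, with library 4 at 10.7 CPM above the others at 8.57 to 8.88 CPM. None of these 3 genes was called in the comparison without the replicate block.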

How the results depend on the processing

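Across 19 alternatives Bbc3, Bcl2l11 and Bmf stayed called and higher, with log2 fold changes of 0.83 to 1.60, 0.65 to 0.96 and 1.48 to 1.77. No named gene that was called reversed. Of all tested genes 2337 were called, and 4516 with the replicate block, 4254 with the library set as a block and 3799 within set 2. Of the members 2 were called, 6 with the replicate block and 5 with the set as a block. Leaving out 1 library at a time gave 1607 to 2088 genes and 2 to 3 members. The cause was not tested, and the block changes which libraries are compared. Bid was called in 6 of the alternatives, among them the stricter filter (adjusted p = 0.049), DESeq2 (0.030) and without ATF4 overexpression library 3 (0.031). Without the 4 libraries of low count ratio, 1583 genes and 2 members were called. That alternative was chosen after seeing the data, because the planned definition, libraries that lack low counts, matched no library. It left 2 libraries a group, ATF4 overexpression 3 and 4 (both set 2) and WT 2 and 3 (1 of each set), so genotype and set are partly mixed in it. There Cebpb (0.42), Cish (0.060) and Il2rb (0.13) were no longer called, by adjusted p, nor were Bcl2a1d and Cdkn1a, as given above. Depth did not limit the members, which averaged at least 9.25 CPM in each group.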
